A study of Saccharomyces cerevisiae with 42 samples.

Results

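TDH1 (YJL052W), TDH2 (YJR009C) and TDH3 (YGR192C) are the 3 genes for glyceraldehyde-3-phosphate dehydrogenase in Saccharomyces cerevisiae, and they were followed through 4 time points of a growing culture. They are 3 of the 7127 genes in the whole-gene count files and 3 of the 4789 genes kept for testing, each with 75 or more counts in all 42 libraries. TDH1 was picked for its large rise at 6 h over 0 h in these same libraries, so its changes from 0 h and from 4 h to 6 h are given as a description with no test. TDH2 and TDH3 were chosen as its close paralogs and not on their values, and they were tested at every step. The data were RNA-seq libraries of BY4742, a haploid wild-type laboratory strain kept at 30 C in YPD, a rich glucose medium. Cultures diluted to a low density grew for 2 h before the 0 h samples were taken, and the later samples followed after another 2, 4 and 6 h. There were 24 libraries at 0 h and 6 each at 2, 4 and 6 h, which differed in nothing else by their labels, although the headers of 18 of the 24 files at 0 h carry alignment names (35C, 10C or Na200) other than 30C. Total gene counts ranged from 4339150 to 31908031, and the lowest count of TDH1 in any library was 433.

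The libraries looked like the labelled strain by most of its marker genes. The 3 genes specific to alpha cells summed to between 28845 and 45506 normalized counts in every library, against at most 839 for the 5 genes specific to a cells, and LYS2, LEU2 and URA3 had at most 1 count in any library while MET17 had at least 902. HIS3 had 153 counts in its lowest library and 4693 in its highest, unlike LEU2 and URA3. The methods' genotype names another kind of deletion allele for HIS3 than for LEU2 and URA3, so its reads are not taken as a departure from the strain. What the HIS3 reads come from was not tested. The methods give the genotype of the strain as MATa with a met15 deletion, which the counts of the alpha-specific genes and MET17 go against. The libraries fell into 2 sets by how strongly log2 CPM rose with gene length over 4478 genes: a flat set of 10 (7 of them 0 h, 1 of them 2 h and 2 of them 6 h libraries) and a steep set of 32. These sets were defined from the data, are not conditions of the study, and bear on TDH2 and TDH3 below.

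Glyceraldehyde-3-phosphate dehydrogenase carries out the oxidation step of glycolysis, in which glyceraldehyde-3-phosphate and NAD+ give 1,3-bisphosphoglycerate and NADH, and it runs in reverse in gluconeogenesis. The enzyme is a tetramer, and in yeast each of the genes TDH1, TDH2 and TDH3 encodes a complete subunit. TDH3 is known as the main source of the enzyme in cells fermenting glucose and its promoter is widely used to drive strong expression, whereas the TDH1 protein is known from cells that approach stationary phase.

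All 3 genes consist of a single exon of 999 bp in the files' R64-1-1 annotation, so that their counts can be compared without a correction for length. TDH1 lies on the plus strand of chromosome X from 338271 to 339269, TDH2 on the minus strand of chromosome X from 453683 to 454681, and TDH3 on the minus strand of chromosome VII from 882812 to 883810. No other annotated gene overlaps any of them. In the RefSeq R64 genome, the coding sequences of TDH2 and TDH3 differed at 42 of 999 bases and those of TDH1 and TDH3 at 111. The translated sequences shared 96.4% of 332 residues between TDH2 and TDH3, 88.6% between TDH1 and TDH2 and 88.3% between TDH1 and TDH3. The 60-base window in which TDH2 and TDH3 differ most (bases 64 to 123 of the coding sequence) is shown because it is where a read best tells these paralogs apart. Capitals mark the bases that differ from TDH3, 17 in TDH1 and 12 in TDH2.
TDH1: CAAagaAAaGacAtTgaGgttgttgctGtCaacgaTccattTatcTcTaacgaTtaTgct
TDH2: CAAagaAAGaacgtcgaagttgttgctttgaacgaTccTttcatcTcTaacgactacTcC
TDH3: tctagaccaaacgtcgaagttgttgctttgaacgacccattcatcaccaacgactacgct

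The other extreme was a run of 173 identical bases in TDH2 and TDH3, from base 355 to base 527, and its first 60 bases are shown beside the same stretch of TDH1, which differs there at 13 bases (capitals).
TDH1: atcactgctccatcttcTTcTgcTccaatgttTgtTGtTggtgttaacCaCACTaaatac
TDH2 and TDH3: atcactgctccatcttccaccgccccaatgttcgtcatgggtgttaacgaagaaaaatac
Reads that map to several places were dropped in counting, so a read or read pair wholly within such a run counts for no gene. Of all 100-base windows in the coding sequence, 95.4% of those in TDH1, 87.2% of those in TDH2 and 91.8% of those in TDH3 occur once in the genome. With 50-base windows the shares were 84.3%, 68.7% and 75.6% in the same order, and with 150-base windows 100%, 97.2% and 97.2%. The read length was not given in the sources used here, so how many reads each gene lost in this way is unknown, and the proportions among the 3 genes are uncertain to that extent.

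The promoters are shown because TDH1 moved apart from TDH2 and TDH3 over the time course. Each window runs from 250 bases before the start codon to 50 bases after its first base, on the coding strand of the RefSeq R64 genome. Capitals mark 3 motifs, each searched on both strands. The core bound by the glycolytic activator Gcr1 was taken as CTTCC. The stress response element bound by Msn2 and Msn4 was taken as AGGGG. The TATA box was taken as TATAAA. The windows are chrX:338021-338320 (plus strand) for TDH1, chrX:454632-454931 (minus strand) for TDH2 and chrVII:883761-884060 (minus strand) for TDH3.
TDH1: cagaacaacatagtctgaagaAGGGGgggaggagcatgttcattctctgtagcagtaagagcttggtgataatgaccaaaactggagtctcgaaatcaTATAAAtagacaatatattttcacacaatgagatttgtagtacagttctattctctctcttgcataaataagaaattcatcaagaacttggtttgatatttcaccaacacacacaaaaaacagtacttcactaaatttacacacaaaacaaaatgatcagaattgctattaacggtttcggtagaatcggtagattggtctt
TDH2: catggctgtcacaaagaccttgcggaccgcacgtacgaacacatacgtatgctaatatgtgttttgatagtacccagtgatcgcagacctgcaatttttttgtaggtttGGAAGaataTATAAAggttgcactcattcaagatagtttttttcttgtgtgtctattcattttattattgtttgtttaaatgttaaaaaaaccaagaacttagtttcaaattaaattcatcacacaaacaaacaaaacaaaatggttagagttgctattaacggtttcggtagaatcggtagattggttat
TDH3: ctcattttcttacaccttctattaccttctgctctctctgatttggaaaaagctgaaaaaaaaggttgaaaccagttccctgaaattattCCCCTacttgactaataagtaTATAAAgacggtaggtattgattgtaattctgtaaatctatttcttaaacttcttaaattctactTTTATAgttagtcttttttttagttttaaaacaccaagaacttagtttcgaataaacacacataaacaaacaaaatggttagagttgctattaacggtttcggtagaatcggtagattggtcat

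TDH1 had 1 match to the stress response element, 229 bases before the start codon, 1 to the TATA box and none to the Gcr1 core. TDH2 had 1 match to the Gcr1 core, printed above as its reverse complement, 1 to the TATA box and none to the stress response element. TDH3 had 1 match to the stress response element, also on the other strand, 2 to the TATA box and none to the Gcr1 core. None of these matches overlaps another. Windows of this length upstream of 5988 protein-coding genes hold the stress response element in 21.6% of cases, the TATA box in 45.2% and the Gcr1 core in 46.5%. The E-box CANNTG, present in 63.9% of the windows, and the Rap1 site, present in 0.969%, were not found in the 3 windows.

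TDH1 was the lowest of the 3 genes at 0 h and came within the range of TDH2 by 6 h. At 0 h its normalized count (gene count scaled to the average library of 13900104 counts) was 710.3 in the lowest library, 1578 in the median and 6638 in the highest. At 2 h it was 1676, 1866 and 2641 in the lowest, median and highest library, inside the range at 0 h. At 4 h it was 5819, 13025 and 26120.0, and at 6 h 21884, 40694 and 49342. At 4 h, 5 of 6 libraries exceeded every library at 0 h, and at 6 h 6 of 6 did. How many of all tested genes separated in this way was not counted. In RNA from a whole culture, a few cells with much TDH1 RNA and many cells with a little cannot be told apart. As a description, the log2 change fitted by edgeR was -0.09 (standard error 0.34) at 2 h against 0 h, 2.67 (standard error 0.30) at 4 h against 0 h, 4.10 (standard error 0.29) at 6 h against 0 h, which ranked 3 among the 4789 genes, and 1.42 (standard error 0.44) at 6 h against 4 h. Over all tested genes, 44.6% passed an adjusted p of 0.05 at 6 h against 0 h, a share from which nothing is read for TDH1.

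**Figure D1:**
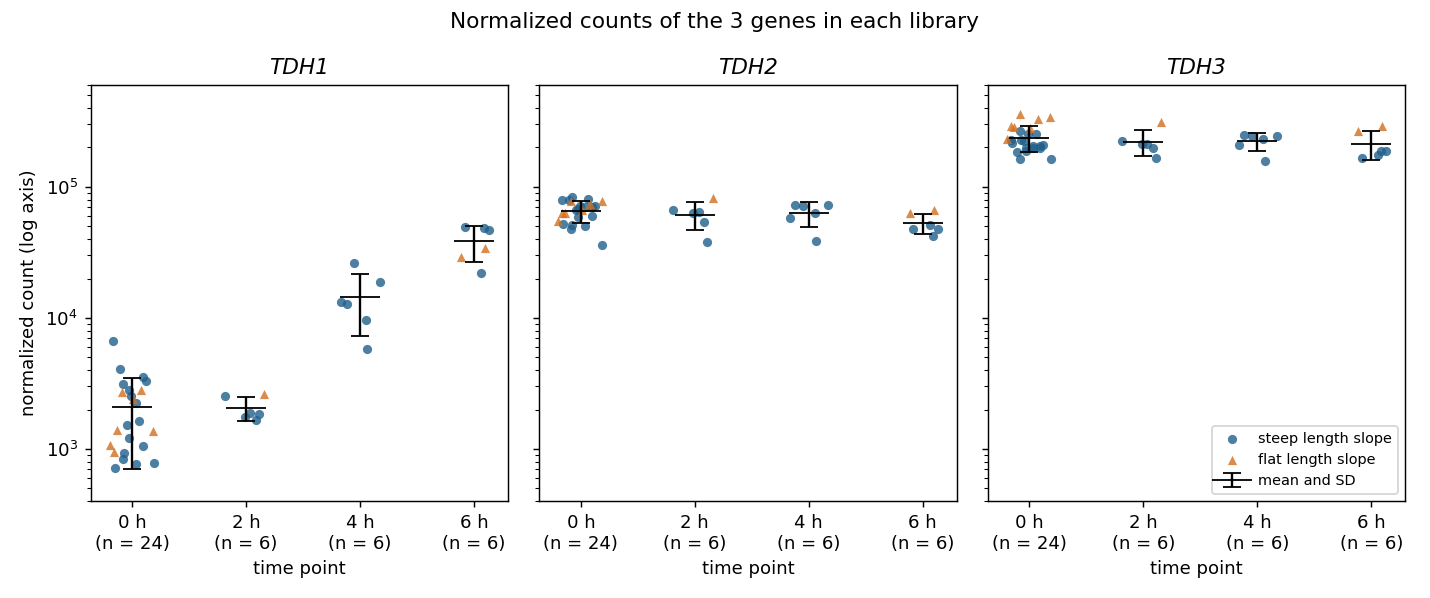
Normalized counts of TDH1, TDH2 and TDH3 in each of the 42 libraries on a log axis, by time point, with mean and SD in black; circles are libraries of the steep length-slope set and triangles those of the flat set. TDH1 lies between 710.3 and 6638 at 0 h and between 21884 and 49342 at 6 h, while the points of TDH2 and TDH3 at later times stay within or near their ranges at 0 h.

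The step from 2 h to 4 h compares libraries other than those on which TDH1 was picked, and TDH1 rose in it. Normalized counts were 5819, 13025 and 26120.0 in the lowest, median and highest library at 4 h, against 1676, 1866 and 2641 at 2 h. The groups did not overlap, which was not counted over all tested genes either. The log2 change was 2.77 (standard error 0.46), a 6.81-fold rise with an adjusted p of 0.000292 (edgeR, quasi-likelihood, Benjamini-Hochberg over the 4789 genes), in a step in which 4.74% of all genes passed. The spread in that fit was estimated over all 42 libraries, and a fit on the 2 h and 4 h libraries alone gave a log2 change of 2.76 (adjusted p = 0.00087 by edgeR). TDH1 ranked 3 among them by log2 change. In the same edgeR fit and step TDH2 stood at -0.01 (standard error 0.21, adjusted p = 0.994) and TDH3 at -0.03 (standard error 0.24, adjusted p = 0.966), and their ranges at 4 h and 2 h overlapped. In the next step, at 6 h against 4 h, in which 3.84% of all tested genes passed, the log2 change of TDH2 was -0.21 (standard error 0.21, adjusted p = 0.582) and that of TDH3 -0.03 (standard error 0.24, adjusted p = 0.953), again by edgeR.

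TDH2, the second of the 3 genes by level at 0 h, was lower at 6 h in the fit, without passing the test over all libraries. At 2 h its normalized count was 37714 in the lowest, 63977 in the median and 82181 in the highest library, against 36232, 67247 and 83570 at 0 h, and the log2 change from 0 h came to -0.17 (adjusted p = 0.673 by edgeR, standard error 0.17; 0.0835% of all genes called). At 4 h the counts were 38495, 67937 and 72525 in the lowest, median and highest library, with a log2 change of -0.17 from 0 h (standard error 0.17, adjusted p = 0.438 by edgeR; 35.2% of all genes called, 1684 genes, against 485 with the culture numbers as a block over the libraries named 30C and 263 over those at 0 h named 30C with no block). At both of these times the libraries spanned most of the range at 0 h. At 6 h the counts were 41948, 49515 and 66243 in the lowest, median and highest library, against the same range at 0 h. All 6 libraries at 6 h lay below the median at 0 h and none below the lowest. The log2 change was -0.38 (standard error 0.17, interval from -0.72 to -0.05, adjusted p = 0.0636 by edgeR), at a background of 44.6% of genes called.

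TDH3 was the most abundant tested gene per kb in the median library at every time point. At 2 h its normalized count was 165062, 213373 and 313180 in the lowest, median and highest library, against 163136, 226728 and 359144 at 0 h, with a log2 change of -0.19 (adjusted p = 0.670 by edgeR). At 4 h the counts were 158921, 239542 and 248232, with a log2 change of -0.22 (adjusted p = 0.382 by edgeR). The lowest library at 4 h lay just below the lowest at 0 h. At 6 h the counts were 165903, 187778 and 293882, and no library lay outside the range at 0 h. The log2 change from 0 h was -0.25 (standard error 0.19, interval from -0.62 to 0.13, adjusted p = 0.306 by edgeR).

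Within 1 length-slope set the libraries of TDH3 spread less, and the call for both genes at 6 h changed. TDH3 had between 264899 and 293882 normalized counts in the 2 flat libraries at 6 h, against 231004 to 359144 in the 7 flat libraries at 0 h. In the steep libraries it had between 165903 and 188289 in 4 libraries at 6 h, against 163136 to 268986 in 17 libraries at 0 h. TDH2 had 63202 and 66243 normalized counts in the 2 flat libraries at 6 h (mean 64722), against 54802 to 77593 (mean 68163) in the 7 flat libraries at 0 h. It had between 41948 and 51152 (mean 47125) in the 4 steep libraries at 6 h, against 36232 to 83570 (mean 64564) in the 17 at 0 h. With the set as a covariate, TDH2 fell by 0.43 (adjusted p = 0.0100) and TDH3 by 0.30 (adjusted p = 0.0169) on the log2 scale at 6 h. In the steep set alone, TDH2 fell by 0.56 (adjusted p = 0.00878) and TDH3 by 0.35 (adjusted p = 0.0202), by edgeR in both fits. DESeq2 also called TDH2 lower (log2 change -0.40, adjusted p = 0.0388) but not TDH3 (-0.27, adjusted p = 0.254). Whether the fall of TDH2 passed rested on single libraries as well: its adjusted p in edgeR was 0.0184 without 6 h replicate 2, 0.0465 without 6 h replicate 4, 0.0320 without 0 h replicate 22, 0.0478 without 0 h replicate 20 and 0.0456 without 2 h replicate 1. What sets the flat libraries apart was not tested.

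**Figure D2:**
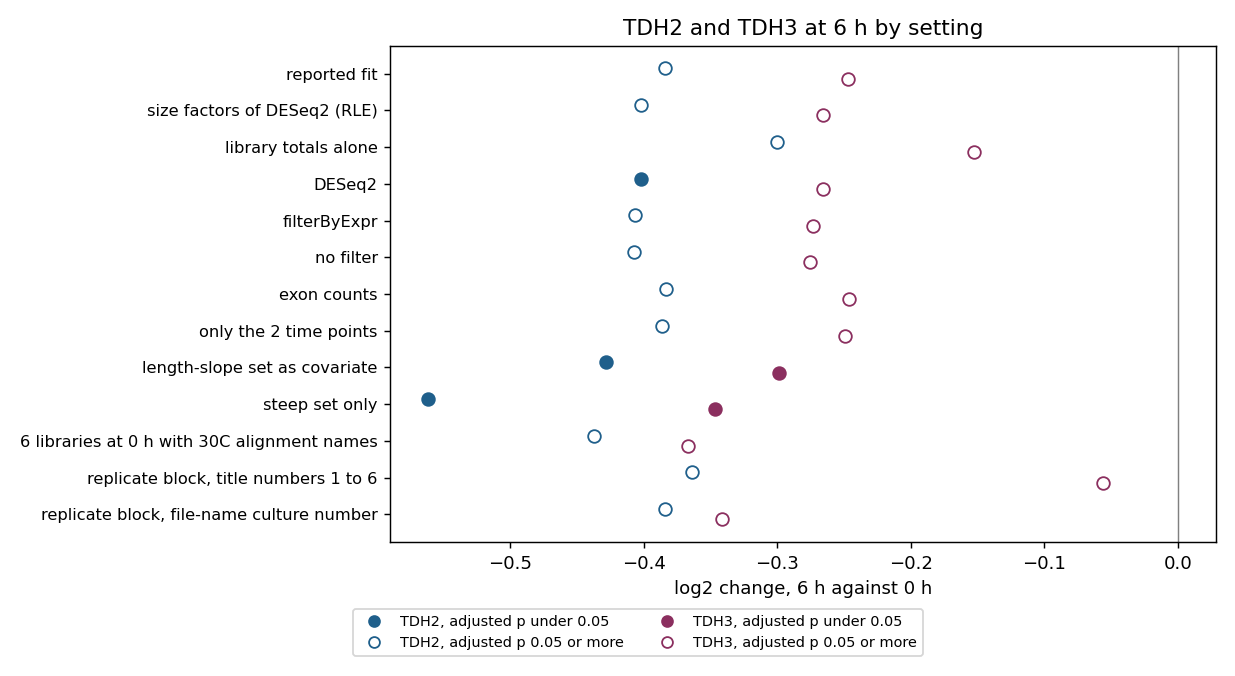
Log2 change of TDH2 and TDH3 at 6 h against 0 h (x axis) in the reported fit and under each alternative (rows); filled circles have an adjusted p under 0.05. All values lie below 0, between -0.56 and -0.30 for TDH2 and between -0.37 and -0.06 for TDH3, and those filled are the 2 fits that use the length-slope sets and, for TDH2, DESeq2.

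A share among the 3 genes within a library does not depend on how libraries are scaled. TDH1 made up 8.16% of the counts of the 3 genes in the lowest, 12.7% in the median and 18.8% in the highest library at 6 h, against 0.262%, 0.509% and 2.10% at 0 h, given as a description. At 4 h the share was 2.86%, 4.27% and 7.59% in the lowest, median and highest library, against 0.631%, 0.669% and 0.905% at 2 h, and the groups did not overlap. The mean share was 3.89 percentage points higher at 4 h than at 2 h (n = 6 each; p = 0.00216 in an exact permutation test, two-sided, which is as low as 6 against 6 can reach). TDH2 exceeded TDH1 and TDH3 exceeded TDH2 in every library at 0, 2 and 4 h. At 6 h TDH1 exceeded TDH2 in 2 of 6 libraries (49342 against 47523 normalized counts in replicate 1, and 48908 against 41948 in replicate 3), so these neighbours in the order did not differ beyond their spread there. The 3 genes together took 2.19 ± 0.42% of all gene counts at 6 h (SD, n = 6) and 2.20 ± 0.44% at 0 h (SD, n = 24).

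The balance between TDH2 and TDH3 was not detectably different at any later time. TDH2 made up 21.6 ± 1.81% of the counts of TDH2 and TDH3 at 2 h (SD, n = 6) and 21.9 ± 3.48% at 0 h (SD, n = 24), a difference of -0.25 percentage points (two-sided exact permutation test, adjusted p = 0.947 over 3 comparisons). At 4 h the share was 21.8 ± 1.25% (difference -0.10 percentage points, adjusted p = 0.947 by the exact test). At 6 h it was 20.2 ± 1.87% (difference -1.71 percentage points, p = 0.258 and adjusted p = 0.774 by the exact test). The shares at 0 h ran from 17.7 to 19.3% in the 7 flat libraries and from 18.2 to 30.2% in the 17 steep ones. With labels permuted only within the sets, the exact p at 6 h was 0.151 before adjustment. The size of these differences moved with the libraries used, and none passed. In the steep libraries alone they were -1.51, -1.52 and -2.47 percentage points at 2, 4 and 6 h. Against the 6 libraries at 0 h named 30C they were 0.96, 1.12 and -0.50, and against the libraries at 0 h with the same title numbers -2.23, -2.07 and -3.68.

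**Figure D3:**
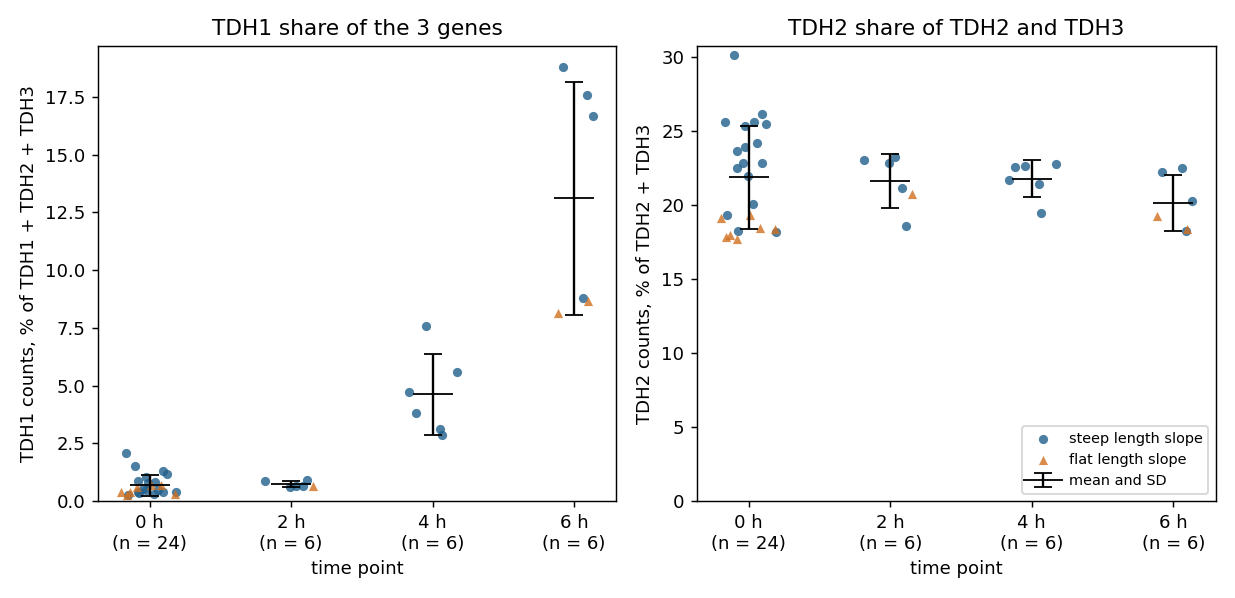
TDH1 counts as a percentage of the counts of TDH1, TDH2 and TDH3 (left) and TDH2 counts as a percentage of TDH2 and TDH3 (right), for each library by time point, with mean and SD in black; circles are steep and triangles flat libraries. The TDH1 share lies between 0.631 and 0.905% at 2 h and between 2.86 and 7.59% at 4 h, while the TDH2 share keeps a mean between 20.2 and 21.9%.

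Other enzymes of the pathway also moved apart within pairs of paralogs. Of 23 genes in a list from the hexokinases to alcohol dehydrogenase, 21 were tested. Leaving TDH1, TDH2 and TDH3 aside, 4 of 18 rose and 7 fell at 6 h against 0 h in edgeR's test. Of all 4789 tested genes 44.6% passed, 1193 of them higher and 941 lower. The median log2 change was -0.15 over the 18 and 0.02 over all genes. The list and the members share the same libraries at 0 h and 6 h. The glucose-repressed hexokinase HXK1 rose (log2 change 4.40, standard error 0.24), with 30086 ± 10338 normalized counts at 6 h (SD, n = 6) and 1323 ± 600.02 at 0 h (SD, n = 24). Its paralog HXK2, the main hexokinase on glucose, fell by 0.73 on the log2 scale. The glucokinase GLK1 rose (2.28). Of the enolases, ENO1 rose (0.84), with 56523 ± 7418 normalized counts at 6 h and 29844 ± 11356 at 0 h, while ENO2 fell by 0.69, with 111090 ± 32272 at 6 h and 169260 ± 41097 at 0 h. Of the pyruvate kinases, PYK2 rose (0.90) and CDC19 fell by 0.33, and of the pyruvate decarboxylases PDC1 fell by 0.71 while PDC5 had 0.17 (adjusted p = 0.265 by edgeR). CDC19 did not pass without 6 h replicate 1, 3 or 5 (adjusted p between 0.0698 and 0.111 by edgeR). Phosphoglucose isomerase PGI1 and the phosphofructokinase subunit PFK1 fell by 0.28 and 0.38, and GPM3, a paralog of phosphoglycerate mutase, by 0.38, while GPM1, the mutase itself, had -0.03. GPM2 (19 counts in its lowest library) and PDC6 (4 counts) did not reach the count minimum. With only the 6 libraries at 0 h named 30C, 4 genes no longer passed: ENO1 (log2 change 0.86, adjusted p = 0.0542), CDC19 (-0.34, adjusted p = 0.104) and PGI1 (-0.31, adjusted p = 0.0762) at changes about as large as in all libraries, and PYK2 at a smaller one (0.53, adjusted p = 0.198). ENO2 did not pass with the title numbers as a block (-0.55, adjusted p = 0.0981), nor did PFK1 with library totals (-0.28, adjusted p = 0.0915), all by edgeR.

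**Figure D4:**
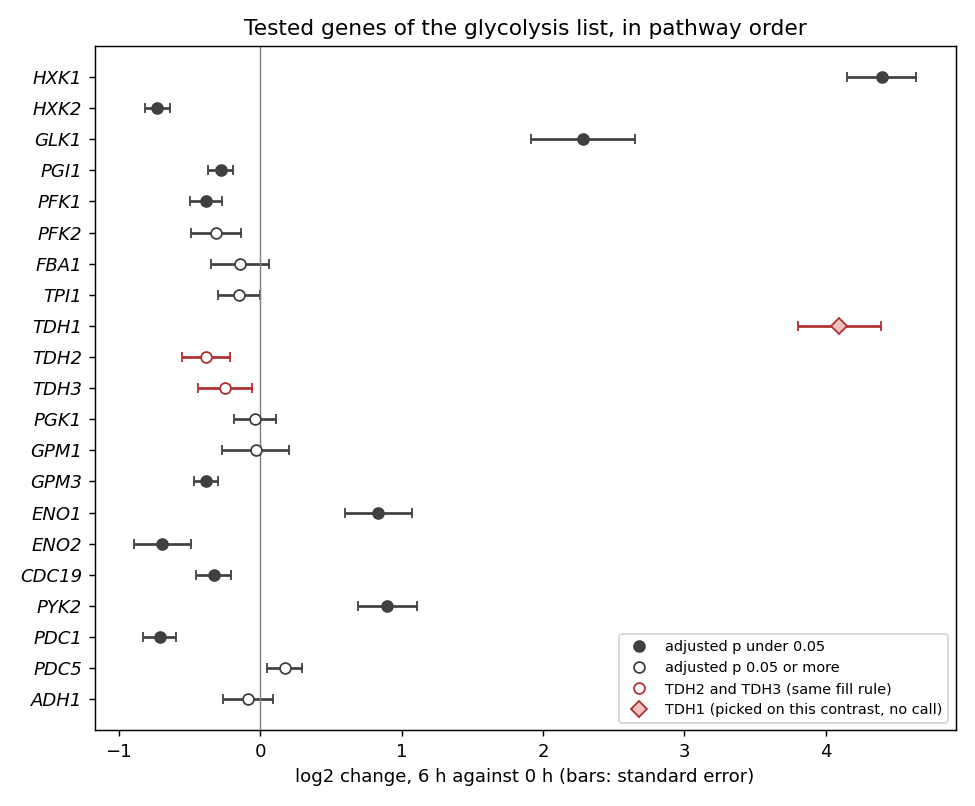
Log2 change at 6 h against 0 h (x axis, bars are standard errors) of the 21 tested genes of the glycolysis list in pathway order; filled circles have an adjusted p under 0.05, red marks the 3 dehydrogenase genes, and the diamond for TDH1 carries no call. HXK1 (4.40), TDH1 (4.10), GLK1 (2.28), PYK2 (0.90), ENO1 (0.84) and PDC5 (0.17, open) lie to the right of 0. HXK2, CDC19, ENO2 and PDC1 lie to its left as filled circles, and TDH2 and TDH3 as open ones.

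In the step from 2 h to 4 h, 3 of the 18 tested genes other than the dehydrogenases rose by edgeR: HXK1 (log2 change 2.13), GLK1 (2.06) and PYK2 (0.99). Of all 4789 tested genes 4.74% passed in this step, 138 of them higher and 89 lower. None of the 21 with the dehydrogenases fell, with 1 at an unadjusted p under 0.05 in the negative direction and none by DESeq2. The calls of GLK1 and PYK2 rested on single libraries. GLK1 did not pass without 2 h replicate 2, 3 or 6 or 4 h replicate 1 or 4 (adjusted p between 0.0563 and 0.0945), and PYK2 did not pass without 2 h replicate 1, 2 or 6 or 4 h replicate 1, 4 or 5 (adjusted p between 0.0523 and 0.145). TDH1 and HXK1 passed without any 1 library. At 4 h against 0 h the list had 4 genes higher and 4 lower, beside 35.2% of all genes called (849 higher and 835 lower). At 2 h against 0 h, where 0.0835% of all genes were called, the list had none in either direction by edgeR or DESeq2, with 1 gene at an unadjusted p under 0.05.

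Of 7 transcription factors listed as regulators of glycolytic or glucose-repressed genes, 3 rose and none fell at 6 h against 0 h in edgeR's test. That is near the 44.6% of all tested genes called in this comparison (1193 higher and 941 lower). In the negative direction, 1 had an unadjusted p under 0.05 by edgeR, and DESeq2 called it. No Mig1 site was searched in the promoters. MSN4, a stress response activator, rose (log2 change 1.90, standard error 0.13), with 3495 ± 1305 normalized counts at 6 h (SD, n = 6) and 872 ± 210 at 0 h (SD, n = 24). MIG1, a glucose repressor, rose by 1.01 and MSN2, the paralog of MSN4, by 0.27 (adjusted p = 0.0415 by edgeR). The call of MSN2 was lost without any 1 of 0 h replicates 5, 7, 8, 16, 17 and 19 or 6 h replicates 1, 3, 5 and 6 (adjusted p between 0.0512 and 0.158). The glycolytic activators GCR1 (-0.19), GCR2 (-0.13), RAP1 (0.17) and TYE7 (-0.27) did not pass. A transcript level says nothing about the activity of these proteins, and no relation to TDH1 was tested.

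TDH1 already varied by a factor of 9.35 among the 24 libraries at 0 h, more than TDH2 (2.31) or TDH3 (2.20). By alignment name the ranges were 777.3 to 3110 normalized counts in the 6 libraries named 30C, 769.1 to 6638 in those named 35C, 1057 to 2798 in those named 10C and 710.3 to 3563 in those named Na200, and all of them overlapped. The flat libraries at 0 h had 942.1 to 2820 and the steep ones 710.3 to 6638. Over the 24 libraries at 0 h, log2 values of TDH1 were compared with those of 9 genes that mark the growth phase. This comparison was chosen after seeing the data, and the values of TDH1 at 0 h are part of what it was picked on. The permutations also moved libraries freely across alignment names. The p-values of these correlations are therefore given as a description. HXT1, a glucose transporter used at high glucose, was lower where TDH1 was higher (Pearson r = -0.636, permutation p = 0.00067, adjusted p = 0.00603 over the 9; Spearman rho = -0.566, adjusted permutation p = 0.0371; r = -0.514 without the 2 libraries farthest from the median). Within the sets r was -0.744 in the 17 steep and -0.452 in the 7 flat libraries. HXK1 was higher where TDH1 was higher (r = 0.539, permutation p = 0.00701, adjusted p = 0.0227; rho = 0.537, adjusted permutation p = 0.0371; r = 0.680 without the 2 farthest, 0.615 in the steep and 0.486 in the flat libraries).

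The other 7 markers were less even. HXT7, a glucose-repressed transporter, had r = 0.530 (adjusted permutation p = 0.0227; rho = 0.505, adjusted permutation p = 0.0375), and r = 0.495 without the 2 farthest libraries, but its counts were as low as 10 and HXT6, its near-identical copy, had r = -0.276 (adjusted permutation p = 0.247). HXT3 had r = -0.469 (adjusted permutation p = 0.0486) and rho = -0.426 (adjusted permutation p = 0.0909). CTT1, SUC2, HSP12 and HSP26, which mark stress or glucose depletion, did not pass by either measure, with r from -0.341 to 0.409. Over the time course HXT1 had 980.4, 2444 and 3420 normalized counts in the lowest, median and highest library at 6 h. At 0 h these were 10713, 21186 and 30925. HXT3, also a high-glucose marker, had 41569, 48573 and 69397 at 6 h, against 34030, 52527 and 80222 at 0 h, so its ranges overlapped. The 7 glucose-repressed markers summed to between 20978 and 59924 at 6 h, against 3416 to 5918 at 0 h. HXK1 alone had a mean of 30086 within a mean sum of 45035 at 6 h. The part of the growth phase in the rise of TDH1 was not tested.

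**Figure D5:**
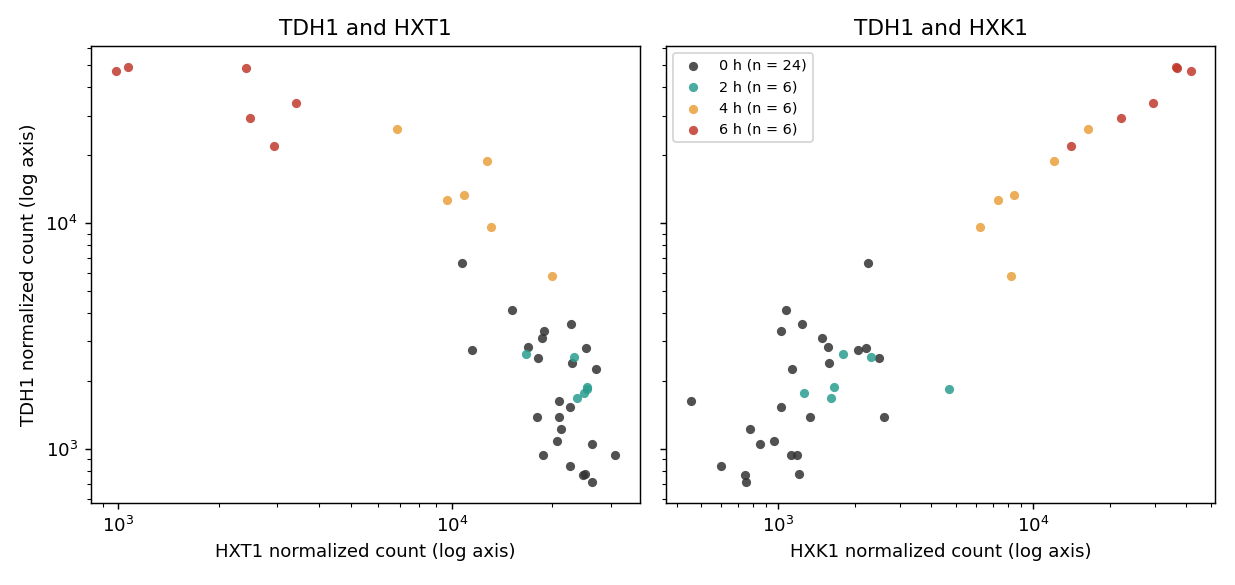
Normalized counts of TDH1 (y axis) against those of HXT1 (left) and HXK1 (right) in each of the 42 libraries, all axes logarithmic, colours by time point. The other growth-phase markers are not plotted. The 24 libraries at 0 h spread from 710.3 to 6638 normalized counts of TDH1, those with the highest TDH1 lie toward lower HXT1, and the libraries at 4 h and 6 h lie at higher TDH1, higher HXK1 and lower HXT1.

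The genes most like each member over all 42 libraries were found by the Pearson correlation of log2 CPM, given as a description of points that share libraries, depth and time course. For TDH1 they were NDI1 (r = 0.955), the internal NADH dehydrogenase of mitochondria, GSY2 (0.935), a glycogen synthase, RIP1 (0.933), the iron-sulfur subunit of respiratory complex III, HXK1 (0.930) and GAD1 (0.922), a glutamate decarboxylase. Among the 24 libraries at 0 h alone, r with TDH1 was 0.849 for NDI1, 0.924 for GSY2, 0.647 for RIP1, 0.561 for HXK1 and 0.861 for GAD1.

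For TDH2 the 5 were NRE1 (0.927), PGI1 (0.903), PCM1 (0.863), an enzyme of the path to chitin precursors, TPI1 (0.836), the triose phosphate isomerase that supplies the substrate of the dehydrogenase, and SER2 (0.832), which makes serine. In the steep libraries alone r was between 0.795 and 0.943 for these 5. For TDH3 they were FBA1 (0.950), the fructose bisphosphate aldolase, ADK1 (0.946), an adenylate kinase, RPE1 (0.943) of the pentose phosphate pathway, SHM1 (0.937), a serine hydroxymethyltransferase, and SHB17 (0.936), a sedoheptulose bisphosphatase. In the steep libraries alone these values were lower, between 0.768 and 0.884. Among the members, TDH2 and TDH3 had r = 0.819 over the 42 libraries and 0.737 at 0 h. TDH1 and TDH2 had r = -0.045 over the 42 libraries and 0.739 at 0 h, so that the libraries richer in TDH1 at 0 h were also richer in TDH2, while over the whole time course these genes went separate ways.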

How the data were processed

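RNA-seq was done on 42 polyA-selected stranded libraries. The authors made the deposited count tables with featureCounts 2.0.3 on the Ensembl release 106 annotation of R64-1-1: whole-number read counts per gene, over whole genes and over exons, by strand, with reads that mapped to several places left out. The methods name STAR and StringTie with featureCounts, and counts made again with featureCounts over genes or exons. They also name a ComBat-seq adjustment for batches in polyA selection, whereas the deposited files have the form of plain featureCounts output. Genes with at least 75 counts in every library were tested (4789 of 7127) with edgeR 4.0.16 (quasi-likelihood F test, TMM scaling, Benjamini-Hochberg adjustment at 0.05, time as a factor over all 42 libraries). DESeq2 1.42.0 was an alternative. Intervals are the estimate and 1.96 standard errors either way. Levels are counts scaled to the average library total. Shares were compared by exact permutation tests (593775 assignments for 24 against 6, 924 for 6 against 6), and correlations at 0 h by 100000 permutations with counts taken as log2 of the normalized count plus 2. R 4.3.3, Python 3.11.15, numpy 2.4.6 and scipy 1.17.1 were used. The edgeR step was tested on simulated data.

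The labels call the replicates biological replicates. The deposited names number cultures from 1 to 6 at each time point, and at 0 h under each alignment name. Whether a number stands for the same culture across times or names is not given. The reported fits and the exact tests took every library as independent. No 2 libraries of a group agreed within sampling noise. Title numbers did not pair libraries at 0 h with those at later times. The culture numbers of the deposited names met the criterion (every pair's correlation of deviations over 0.1) at 4 h against 0 h only. Pairing was not checked for 4 h against 2 h or 6 h against 4 h. At 4 h and 6 h, libraries with the same title number have the same culture number. The files' coordinates matched RefSeq R64 for 5992 of the 6047 genes matched by systematic name, the 3 members included. Named genes were the members, the paralogs in a list of 23 glycolytic genes and 7 regulators, and for each member the 5 tested genes with the highest correlation. The members and lists were chosen with earlier results of these data known. Alternatives were other scaling, filters, tests, exon counts, the length-slope sets, the 30C libraries at 0 h, replicate blocks and leaving out each library. The longer promoter window and the correlations at 0 h were chosen after seeing the data.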

Additional observations from a re-analysis of the deposited data

How the results depend on the processing

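TDH1 at 4 h against 2 h passed under all 12 alternatives (log2 change 2.69 to 2.89) and without any 1 library (2.52 to 2.93). Its share of the 3 genes passed under the 5 alternatives run for it and without any 1 library (3.29 to 4.24 percentage points). TDH2 at 6 h against 0 h passed with DESeq2 (-0.40), with the length-slope covariate (-0.43) and in the steep set (-0.56), and lay between -0.52 and -0.31 without 1 library. TDH3 at 6 h passed with the covariate (-0.30) and in the steep set (-0.35). The cause was not tested. None of the values that changed sign passed a test: TDH3 at 4 h against 0 h was 0.049 with the covariate and 0.042 in the steep set. At 4 h against 2 h, TDH2 and TDH3 were 0.040 and 0.020 with library totals, 0.087 and 0.14 with the covariate and 0.14 and 0.14 in the steep set. The range without 1 library was -0.13 to 0.13 for TDH2 and -0.12 to 0.14 for TDH3 in that step, -0.21 to 0.047 for TDH3 at 6 h against 4 h and -0.23 to 0.064 for GPM1 at 6 h against 0 h, which was 0.060 with library totals. The TDH2 share was 0.96 percentage points higher at 2 h and 1.12 at 4 h than in the 6 libraries at 0 h named 30C. As a log2 ratio the difference at 4 h was 0.0057, and the share without 1 library differed by -0.57 to 0.35 at 2 h and by -0.29 to 0.36 at 4 h.

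With the title numbers as a replicate block, TDH1 at 4 h against 2 h was 2.72 (adjusted p = 0.00146 by edgeR), TDH2 and TDH3 at 6 h were -0.36 and -0.06, TDH3 at 2 h was 0.0071, TDH2 at 4 h against 2 h 0.00114 and GPM1 at 6 h 0.098. The exact sign-flip p of the TDH1 share at 4 h against 2 h was 0.0312, as low as 6 pairs can reach. Title numbers 3 and 4 stand for different culture numbers at 2 h and 4 h, so these pairs join different culture numbers. With the culture number of the deposited names as a replicate block, TDH2 and TDH3 at 6 h were -0.38 and -0.34, TDH2 at 4 h against 2 h was 0.0065 and GPM1 0.043. With this culture block, which uses only libraries named 30C, CDC19 (adjusted p = 0.0838) and PYK2 (0.47, adjusted p = 0.155) did not pass at 6 h against 0 h by edgeR. Of the title pairs, 3, 2 and 2 of 6 had deviations that correlated above 0.1 at 2, 4 and 6 h against 0 h. Of the culture pairs 4, 6 and 5 of 6 did, with correlations from -0.56 to 0.80, 0.14 to 0.48 and -0.59 to 0.87.

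With library totals alone the median gene stood at a log2 change of 0.11 (6 h) and 0.10 (4 h) from 0 h. The number of genes called over the alternatives ranged from 1282 to 3016 at 6 h against 0 h (2134 in the reported fit), 263 to 2132 at 4 h against 0 h (1684), 108 to 711 at 4 h against 2 h (227) and 33 to 365 at 6 h against 4 h (184), and was at most 130 at 2 h against 0 h (4). Without 1 library the counts were 2 to 43 at 2 h against 0 h (moved over 1.5 times by 0 h replicates 13, 14 and 22, 2 h replicates 1 and 4, 4 h replicate 3 and 6 h replicate 2), 1073 to 1875 at 4 h against 0 h (by 4 h replicate 1), 76 to 535 at 4 h against 2 h (by 2 h replicates 2, 3 and 6 and 4 h replicates 1, 3, 4 and 5) and 82 to 336 at 6 h against 4 h (by 4 h replicates 4, 5 and 6 and 6 h replicates 2 and 6), and the background shares move with them. In the glycolysis list, 11 genes fell at 6 h in the steep set and 4 with the title block, beside 7. With the title block CDC19 (adjusted p = 0.288) and PGI1 (0.0868) did not pass either, and PYK2 at 4 h against 2 h missed under 3 alternatives (adjusted p between 0.0562 and 0.0870), all by edgeR. MSN2 lost its call under 5 alternatives (adjusted p between 0.0527 and 0.220 by edgeR), GCR2 passed as lower under 5 alternatives and RAP1 as higher under 3. The lowest counts in a library were 433 for TDH1, 11773 for TDH2 and 51527 for TDH3, and exact tests on shares cover the spread between cultures only.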

Other observations

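In the 500 bases before the start codon, a window chosen after seeing the data, TDH1 had 2 matches each to the stress response element, the Gcr1 core and the E-box. TDH2 had 2 matches to the Gcr1 core, 3 to the E-box and none to the stress response element. TDH3 had 2 matches to the stress response element, 1 to the E-box and none to the Gcr1 core. Of 5987 upstream windows of this length, 34.1% hold the stress response element, 66.1% the Gcr1 core and 82.5% the E-box. The Rap1 site, found in 1.89% of them, was not matched in the 3 windows.

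TDH1 ranked between 324 and 2794 among the 4789 tested genes by counts per kb in the libraries at 0 h, and between 21 and 72 in those at 6 h. TDH2 ranked between 14 and 35 at 0 h and between 21 and 30 at 6 h.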
